A study of Rattus norvegicus with 56 samples.

Results

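Transcripts of 8 rat genes of calcium/calmodulin signalling were followed in hippocampal neuronal cultures after repetitive magnetic stimulation. The genes were the 4 CaMKII subunits Camk2a, Camk2b, Camk2d and Camk2g, the kinase Camk4, the upstream kinases Camkk1 and Camkk2, and the calmodulin-binding protein neurogranin, Nrgn. They were chosen by name, through the RefSeq accession of the array probes, and the brightest probe stood for each gene. All 8 were among the 13888 genes with a symbol that were tested, which is 8 of 13888, and all 8 probes were well above background on 55 of 55 arrays.

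The cultures came from the hippocampus of Sprague Dawley rat embryos at embryonic day 18, with no transgene named in the labels. A coil under the dish delivered either 1 Hz pulses or intermittent theta burst stimulation (iTBS, short bursts of pulses) in repeated blocks, and sham dishes stayed in the incubator with the coil at a distance. RNA was taken at 0, 2, 8, 24 or 48 h, with 3, 2, 4, 3 and 4 arrays for 1 Hz, 4, 4, 3, 3 and 4 for iTBS, and 4, 4, 3, 3 and 3 for sham, and 4 arrays of untreated cultures were taken at 0 h only. These counts leave out 1 array of the 1 Hz group at 2 h whose spot grid was marked as misplaced, which left 55 arrays in 16 groups. The sample numbers fell into 4 runs, here called culture series A, B, C and D (11, 12, 17 and 15 arrays). The untreated cultures belonged to series A and C. The labels do not say how many embryos or litters a dish held or what a series was, so p-values measure the spread between arrays, which may be partly technical.

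Calcium that enters a neuron through NMDA receptors and calcium channels binds calmodulin. Loaded calmodulin opens the holoenzyme of CaMKII, whose alpha and beta subunits predominate in the forebrain and whose activity at the synapse is central to long-term potentiation. Camkk1 and Camkk2 phosphorylate and switch on Camk4, a nuclear kinase that acts on CREB, while neurogranin holds calcium-free calmodulin at the postsynaptic membrane.

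The start regions of 3 members are printed because their genes carry the results by culture series and time, or because their probes disagree. Nrgn varied most between series, Camk2b fell with time once series was in the model, and Camk2g was read differently by its probes. Each line runs 5′ to 3′ from 250 bases before to 50 bases after the RefSeq start in assembly GRCr8, with each GC box (GGGCGG on either strand) in capitals.
Nrgn, chr8:45452368-45452667, minus strand: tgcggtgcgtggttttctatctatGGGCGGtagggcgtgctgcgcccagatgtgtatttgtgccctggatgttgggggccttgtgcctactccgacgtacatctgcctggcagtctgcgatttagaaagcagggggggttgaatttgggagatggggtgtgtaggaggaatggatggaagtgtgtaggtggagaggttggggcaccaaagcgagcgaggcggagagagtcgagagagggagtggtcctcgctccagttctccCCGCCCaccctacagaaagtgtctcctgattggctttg
Camk2b, chr14:85147895-85148194, minus strand: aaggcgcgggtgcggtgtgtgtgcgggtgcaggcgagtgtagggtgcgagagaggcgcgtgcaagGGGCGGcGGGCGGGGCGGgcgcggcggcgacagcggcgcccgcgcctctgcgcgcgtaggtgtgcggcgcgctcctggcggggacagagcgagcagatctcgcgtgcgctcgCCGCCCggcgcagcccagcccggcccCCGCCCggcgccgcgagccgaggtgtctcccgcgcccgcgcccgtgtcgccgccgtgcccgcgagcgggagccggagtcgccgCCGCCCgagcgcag
Camk2g, chr15:3553106-3553405, plus strand: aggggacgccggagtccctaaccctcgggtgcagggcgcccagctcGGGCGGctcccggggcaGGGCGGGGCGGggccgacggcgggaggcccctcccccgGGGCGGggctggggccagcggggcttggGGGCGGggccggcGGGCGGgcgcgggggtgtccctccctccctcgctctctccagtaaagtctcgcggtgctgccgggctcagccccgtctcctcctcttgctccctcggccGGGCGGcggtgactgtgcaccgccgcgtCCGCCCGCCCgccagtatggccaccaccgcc

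A promoter was listed for 7 of the 8 members, Camkk2 being the one not listed. GC boxes were found in 5 of the 7, with 9 in Camk2g, 6 in Camk2b, 4 in Camkk1, 3 in Camk2d and 2 in Nrgn, against 33.1% of all 33469 promoters of that length with at least 1. Some of these overlapped each other in Camk2b and Camk2g. The cAMP response element TGACGTCA was in none of the 7 windows and in 1.83% of all promoters, and its half-site TGACG was in Camk2a and Camkk1, against 21.2% of all. The E-box CANNTG was in 3 of 7 windows, against 72.1% of all. G and C made up 81.3% of the Camk2b window, 80.0% of Camk2g, 78.7% of Camkk1, 74.7% of Camk2d, 61.3% of Camk2a, 57.7% of Nrgn and 45.7% of Camk4, with a median of 51.7% over all promoters. The GC-rich windows thus included those of Camk2b and Camk2g. These are letter matches in a window and not measured binding sites.

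Levels below are scaled log2 signals, on which the mean of an array is 0, and a change is a difference of such levels. Different probes have different efficiencies, so levels are compared between arrays of 1 gene only. Over the 55 arrays the lowest, median and highest level of Nrgn were 1.71, 4.07 and 5.65, the widest spread among the members. The Camk2a probe ran from 0.45 through a median of 1.42 to 3.07. The span was narrower for Camk4, at 2.36, 2.79 and 3.28. For Camk2b the values were 5.94, 6.53 and 7.42, for Camk2d -0.05, 0.65 and 1.53, and for Camk2g 6.74, 7.82 and 8.29. The upstream kinases ran from 2.33 through 2.91 to 3.65 (Camkk1) and from -1.22 through -0.25 to 0.55 (Camkk2).

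Between 66.1% and 81.8% of spots per array were well above background, and pairs of arrays correlated at 0.940 to 0.993. The cultures held several cell types: all 6 neuronal, 4 excitatory and 3 inhibitory markers were above background on 55 of 55 arrays, as were all 7 of the oligodendrocyte lineage and 5 of 6 of astrocytes. Of 6 microglial markers, Cx3cr1 and Itgam were above background on 55 arrays and P2ry12 on 54, while Aif1, Tmem119 and Csf1r were so on 32, 21 and 7. Of 5 endothelial and mural markers, Pdgfrb, Kdr and Pecam1 were above background on 55, 54 and 53 arrays, and Rgs5 and Cldn5 on 12 and 6. In such bulk RNA, fewer cells of a type and less RNA per cell cannot be told apart.

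The first question was whether either protocol altered these transcripts relative to sham at the same time. None of the 8 genes passed after 1 Hz stimulation at any of the 5 times (0 of 40 tests, adjusted p = 1 in limma, 0 at an unadjusted p under 0.05). Of all 35694 probes, 0.00560% passed at 2 h, 0.00280% at 8 h and 0% at the other times, so the background was itself near 0. After iTBS the count was also 0 of 40 (0 unadjusted), with 0.00560% of probes at 8 h and 0% at the other times. When iTBS was set directly against 1 Hz, 0 of 40 passed (0 unadjusted), with 0.00560% of probes at 2 h and 0.00280% at 8 h. Averaged over the times, 0 of 16 tests passed, and the changes of the members lay between -0.11 and 0.03. Adding series as a block left the counts at 0 in each of these families, with at most 1 test per family at an unadjusted p under 0.05. With each series at each time as a block the counts were also 0. That fit had 2 of 40 tests (1 Hz), 4 of 40 (iTBS) and 1 of 40 (iTBS against 1 Hz) at an unadjusted p under 0.05. Its lowest adjusted p values were 0.156, 0.204 and 0.277 in the same order (limma).

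The changes from sham were small for most members and wide in error for Nrgn. Over the 5 times the 1 Hz changes ran from -1.06 to 0.42 with standard errors of 0.15 to 0.91, and the iTBS changes from -0.41 to 0.34 with standard errors of 0.14 to 0.86. Recovery was tried in simulated data with the same groups, for 1 Hz against sham at 24 h by the fit without a block. Of probes altered by 1 on the log2 scale 22% were recovered, and of those altered by 2, 56%. The simulated noise was independent between arrays, whereas arrays of a series shared deviations in the data. Standard errors also differed between members: at 24 h that of Nrgn was 0.86 and that of Camk4 0.16.

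**Figure D1:**
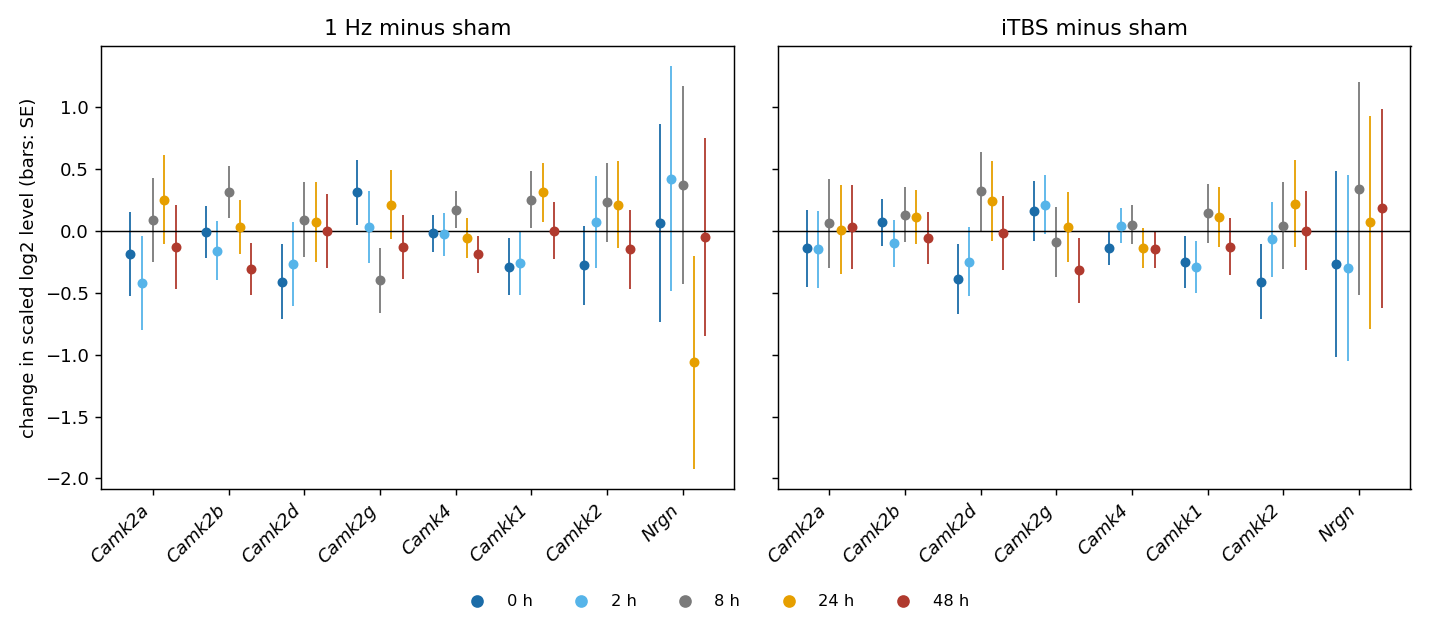
Difference of scaled log2 level between stimulated and sham cultures for each of the 8 genes at each of the 5 times, as points coloured by time with bars of 1 standard error, for 1 Hz (left) and iTBS (right). The points of Nrgn have the longest bars, and its 1 Hz point at 24 h is the lowest, at -1.06.

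The CaMKII subunits, which form the kinase itself, gave the following values. At 0 h Camk2d, a subunit also common outside the brain, lay at 0.48, 0.63 and 0.73 after 1 Hz and at 0.82, 1.42, 0.86 and 1.00 in sham. The groups did not overlap, but the difference of -0.41 (SE 0.30) had an adjusted p of 1 (limma). It was the only one of the 80 comparisons of a protocol with sham in which a member's groups did not overlap. For this and the separations given below, the share of all probes with groups that did not overlap was not counted.

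Camk2b, the subunit that ties the holoenzyme to actin, was at 5.94, 6.51, 6.28 and 6.24 after 1 Hz at 48 h (series A, B, C and D) and at 6.70, 6.41 and 6.55 in sham (A, C and D). The series A array lay furthest below its sham partner, and the groups overlapped. The difference was -0.31 (SE 0.21, adjusted p = 1). With each series at each time as a block it was -0.45 (SE 0.13, adjusted p = 0.156 in limma), which did not pass either. Camk2a ranged over times and protocols from -0.42 to 0.25 relative to sham, and Camk2g from -0.40 to 0.31, with groups that overlapped at each time.

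Among the kinases of the cascade, Camk4 differed from sham by -0.19 to 0.17 after stimulation, Camkk1 by -0.29 to 0.31 and Camkk2 by -0.41 to 0.23. Within series and times, 1 Hz and sham could be paired 13 times and iTBS and sham 17 times. Camkk2 was higher than its sham partner in 10 of 13 pairs after 1 Hz and in 6 of 17 after iTBS, with median differences of 0.12 and -0.04. Nrgn was higher in 7 of 13 and 9 of 17 pairs, so the partners lay on both sides.

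The widest change from sham was that of Nrgn 24 h after 1 Hz. Its levels were 1.71, 4.26 and 4.20 after 1 Hz (series A, C and D) and 3.52, 4.40 and 5.42 in sham (series B, C and D). The lowest value came from the only series A array at 24 h, and the groups overlapped. The difference was -1.06 (SE 0.86, adjusted p = 1). The series block gave -1.16 (SE 0.46, adjusted p = 0.967), and within series and time the difference was -0.58.

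A second question was whether sham handling differed from no treatment at 0 h. Of the 8 genes, 0 passed (0.00280% of probes, or 0.00560% with series as a block), and 1 was at an unadjusted p under 0.05. That gene was Camk4, with 2.51, 2.63, 2.80 and 2.78 in the untreated cultures (series A, A, C and C) and 2.99, 3.15, 2.96 and 3.01 in sham (series B, A, C and D). All 4 untreated arrays lay below all 4 sham arrays, by a mean of -0.35 (SE 0.14, 95% interval -0.63 to -0.07, adjusted p = 1). The series block gave -0.39 (adjusted p = 0.724 in limma).

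Time after stimulation was then compared with 0 h over sham, 1 Hz and iTBS together. By 48 h Camk4 had fallen, and it was the only member to pass without a block: 1 of 32 tests over 4 times. At 2 h 0% of all probes passed, rising through 0.219% (8 h) and 3.83% (24 h) to 10.8% (48 h). Probes called lower made up 0%, 0.0784%, 1.41% and 4.70% in the same order. With series as a block, 5 of 32 tests passed, all lower: Camk4 at 48 h and Camk2b and Camkk2 at both 24 and 48 h. The background then rose to 0%, 2.37%, 14% and 27% of probes in either direction, of which the lower were 0%, 0.684%, 5.39% and 13.4%. This fit took each series to follow the same course and counted arrays of 1 series at 1 time as independent. For Camk2b and Camkk2 the course differed between series (adjusted p = 0.00181 and 0.0216 in limma's F test), so their adjusted p-values may be too small.

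Camk4 was at 2.75, 2.99 and 3.15 (lowest, median and highest of 11 arrays) at 0 h and at 2.36, 2.64 and 3.11 at 48 h (11 arrays). At 48 h 8 of 11 arrays lay under the lowest array at 0 h, and a sham array of series A stayed high at 3.11. The change was -0.32 (SE 0.09, 95% interval -0.49 to -0.15, adjusted p = 0.0121 in limma), and -0.34 with series as a block (adjusted p = 0.00137). Over the arms that a series held at both times, the difference was -0.08 in A (2 arms), -0.35 in B (2 arms), -0.28 in C and -0.42 in D (3 arms each). Series A had a 1 Hz array at 48 h only, at 2.36, and its difference of means with that array was -0.29. The call was lost without series B (adjusted p = 0.0856), C (0.0756) or D (0.115), and with the slide as a block (0.195).

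Camkk2, the upstream kinase that also acts on AMP-activated kinase, was at -0.80, -0.05 and 0.55 at 0 h (11 arrays), at -1.22, -0.53 and -0.24 at 24 h (9 arrays) and at -0.84, -0.70 and 0.13 at 48 h (11 arrays). All 9 arrays at 24 h lay under the median at 0 h, and the groups overlapped. With series as a block it fell by 0.57 at 24 h (SE 0.13, adjusted p = 0.00302 in limma) and by 0.38 at 48 h (SE 0.13, adjusted p = 0.0237), whereas without the block the changes of -0.55 and -0.34 did not pass (adjusted p = 0.0977 and 0.225). Over the arms shared with 0 h, the differences were -0.49, -0.11 and -0.89 at 24 h in B, C and D, and -0.20, -0.21, -0.27 and -0.47 at 48 h in A, B, C and D. Series A held 1 array at 24 h (1 Hz, -1.01), of an arm it lacked at 0 h.

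The Camk2b probe was at 6.43, 6.72 and 7.19 at 0 h (11 arrays), at 6.25, 6.40 and 6.57 at 24 h (9 arrays) and at 5.94, 6.36 and 7.07 at 48 h (11 arrays). The 24 h arrays sat in a narrow band below the median at 0 h, while the 48 h arrays spread more widely. With series as a block it fell by 0.35 at 24 h (SE 0.11, adjusted p = 0.0293 in limma) and by 0.35 at 48 h (SE 0.11, adjusted p = 0.0146). Without the block the changes of -0.35 and -0.33 did not pass (adjusted p = 0.103 and 0.062). Within series, over the arms present at both times, the 48 h difference was -0.36 in A, -0.38 in C and -0.61 in D, but 0.18 in B. In B the 1 Hz arrays were at 6.69 (0 h) and 6.51 (48 h), and the iTBS arrays at 6.54 and 7.07. The higher value in B thus came from the iTBS array at 48 h.

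**Figure D2:**
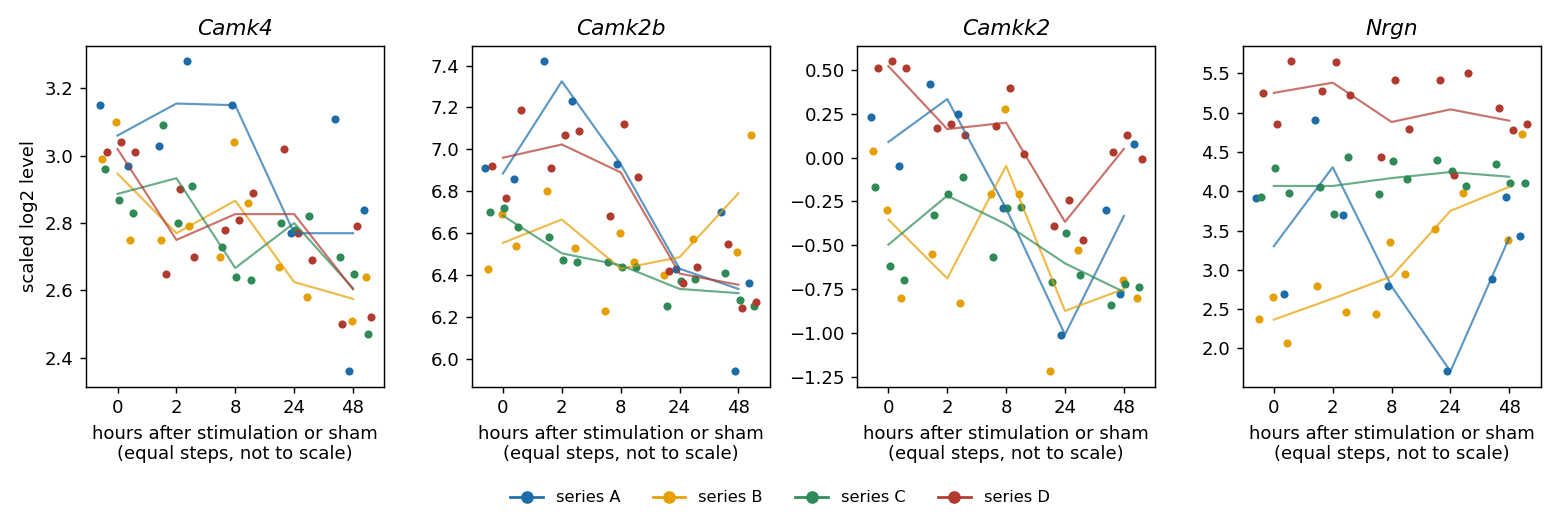
Scaled log2 level of Camk4, Camk2b, Camkk2 and Nrgn against hours after stimulation or sham (equal steps between times), with sham, 1 Hz and iTBS from left to right within a time, each point an array coloured by culture series and each panel on its own scale. Lines join the means of each series over the arms it held at that time, which in A and B are not the same at all times, and 8 of 11 Camk4 points at 48 h lie below the lowest at 0 h.

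Cell-type markers also moved with time. At 48 h, with series as a block, 3 of 6 neuronal markers were lower (Map2 -0.64, Tubb3 -0.63 and Dcx -0.55; median of the list -0.37). The other neuronal markers did not pass and lay on both sides of 0 (Rbfox3 0.29, Snap25 0.12 and Syt1 -0.19). Of the astrocyte markers, 4 of 6 were higher (Gfap 1.64, Aqp4 1.04; median 0.76). The mean level of the neuronal list ran from 6.05 to 6.88 over the arrays at 0 h and from 5.88 to 6.51 at 48 h, that of the astrocyte list from 4.03 to 4.78 and from 4.76 to 5.71. None of the 4 excitatory, 3 inhibitory or 7 oligodendrocyte markers passed at 48 h. Of all probes, 27% passed at 48 h with series as a block, and 13.4% passed as lower. The part of these shifts in the lower Camk4, Camk2b and Camkk2 was not tested.

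Asked as any difference between times, 1 member passed without a block, Camk2b (adjusted p = 0.0372), with 8.16% of probes. Under the series block 3 passed, Camk2b (0.00483), Camk4 (0.0128) and Camkk2 (0.00167), with 27% of probes. In sham cultures alone 0 of 8 passed for a difference over time (lowest adjusted p 0.915 in limma), with 0.0784% of probes. With series as a block no member passed either, and Camkk2 came closest (adjusted p = 0.0825 in limma). In sham pairs against 0 h 0 of 32 passed with or without the block. At an unadjusted p under 0.05 there was 1 without the block and 4 with it. Without the block 0%, 0.00280%, 0% and 0% of probes passed at 2, 8, 24 and 48 h. With series as a block these were 0%, 0.0308%, 0.737% and 1.61%. The sham Camkk2 levels were 0.04, 0.23, -0.17 and 0.51 at 0 h and -1.22, -0.71 and -0.39 at 24 h. All 3 arrays at 24 h lay below all 4 at 0 h, with a difference of -0.93 (adjusted p = 0.531, and 0.05 with series as a block, which did not pass). A different response to stimulation at different times was found for 0 of 8 members under either protocol (adjusted p = 1, 0% of probes).

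The culture series was the factor for which most members passed. Levels differed between series for 7 of 8 members, Camk4 being the exception (adjusted p = 0.226 in limma), and the background was high, with 75.4% of all probes. In a fit of that kind a count of 7 of 8 is near the background. The arrays were on 7 slides, with A on slides 1 and 2, B on 3 and 4, C on 5 to 7 and D on all of them. A difference among A, B and C is therefore also a difference between slides. The members differed in which series was high.

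Neurogranin, which is most abundant in forebrain excitatory neurons, showed the widest series pattern. Its lowest, median and highest levels were 1.71, 2.88 and 4.91 in series A, 2.07, 2.88 and 4.73 in B, 3.71, 4.10 and 4.44 in C, and 4.20, 5.22 and 5.65 in D. Series D stood above C with a small overlap, C lay inside the upper part of the ranges of A and B, and A and B overlapped almost fully. Nrgn was 4.28-fold higher in D than in B (2.10 on the log2 scale, SE 0.22, 95% interval 1.65 to 2.54, adjusted p = 1.9e-10). It was 1.81 higher in D than in A (3.50-fold), 0.91 higher in D than in C (1.88-fold) and 1.18 higher in C than in B (2.27-fold), each past the threshold, while A and B differed by -0.29 (adjusted p = 0.403). Only 3.94% of probes had a wider range of series means.

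**Figure D3:**
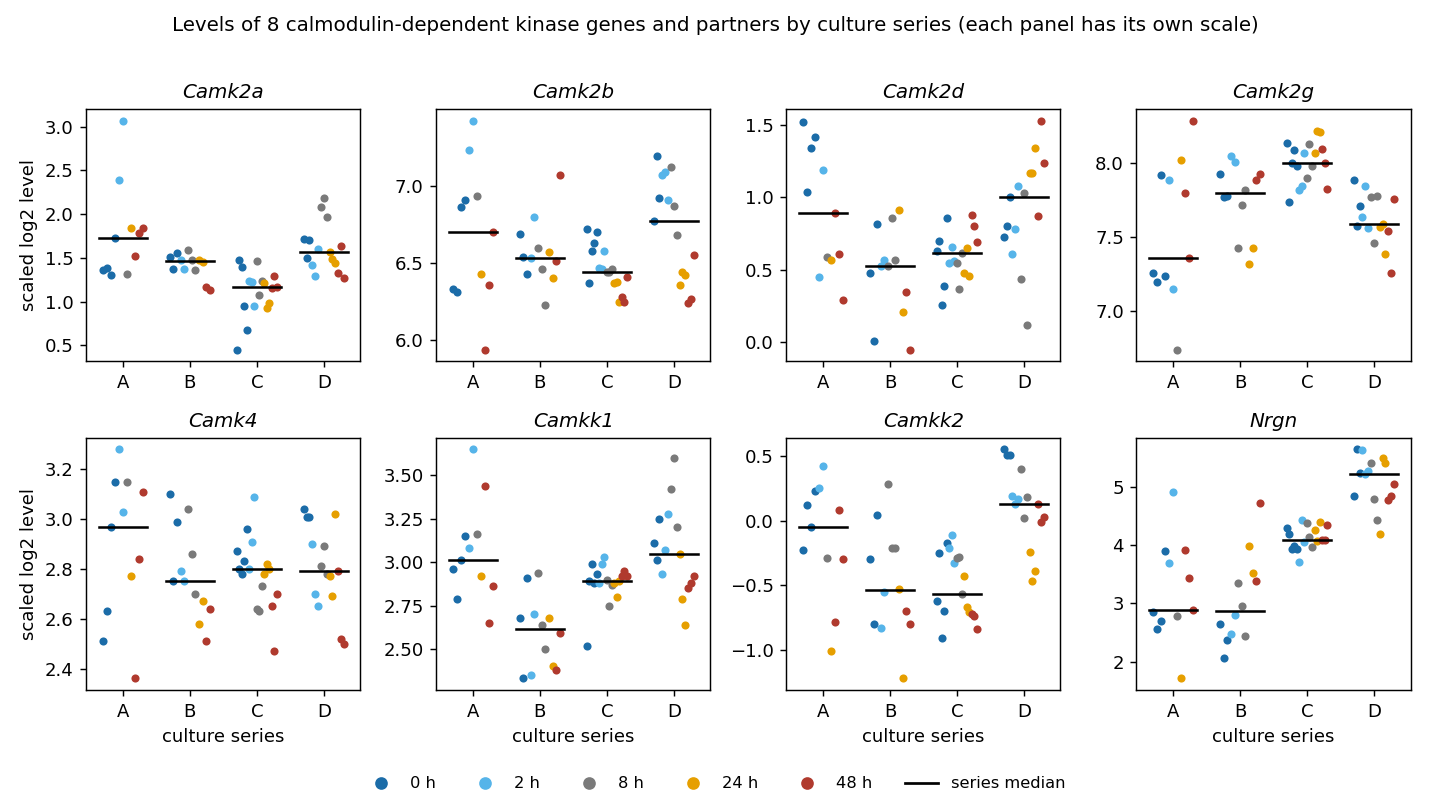
Scaled log2 level of each gene in culture series A, B, C and D, 1 point per array coloured by time, with a black line at each series median and a scale of its own in each panel. The Nrgn points of series D lie between 4.20 and 5.65, above the series B and C medians of 2.88 and 4.10.

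The upstream kinases were also higher in series D than in series B. Camkk2 had medians of -0.05, -0.54, -0.57 and 0.13 in A, B, C and D, with series D running from -0.47 to 0.55 and overlapping each of the others. It was 0.63 higher in D than in B (SE 0.12, adjusted p = 2.01e-05) and 0.62 higher in D than in C (SE 0.11, adjusted p = 6.65e-06). Camkk1, whose product acts on CaMKI and CaMKIV, had medians of 3.01, 2.61, 2.89 and 3.05, and series B was the low one. It was 0.50 higher in D than in B (SE 0.08, adjusted p = 3.62e-06), 0.47 lower in B than in A (-0.47, adjusted p = 0.000217) and 0.32 higher in C than in B (adjusted p = 0.00274).

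Among the CaMKII subunits the series orders were not alike. Camk2a, the subunit that gathers in dendrites and spines, had medians of 1.73, 1.46, 1.17 and 1.57 in A, B, C and D, so C was lowest. It differed by -0.67 between C and A (SE 0.14, adjusted p = 0.000158) and by 0.50 between D and C (SE 0.12, adjusted p = 9e-04). On its brightest probe Camk2g ran the other way, with medians of 7.36, 7.80, 8.00 and 7.59. Series C was highest, by 0.47 over A (SE 0.11, adjusted p = 0.000391 in limma). Series D lay below C by -0.41 (SE 0.09, adjusted p = 0.000349 in limma). A second, dimmer Camk2g probe differed by only 0.15 between C and A and by -0.09 between D and C. Camk2d had medians of 0.89, 0.53, 0.62 and 1.00, and was 0.47 higher in D than in B (SE 0.13, adjusted p = 0.00275). Camk2b differed only between D and C, by 0.25 (SE 0.09, adjusted p = 0.0199). Its series medians were 6.70, 6.54, 6.44 and 6.77.

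By pair of series, 3 of 8 members passed for B against A (30.4% of probes), 4 for C against A (42.9%), 1 for D against A (41.7%), 3 for C against B (32.7%), 4 for D against B (53%) and 7 for D against C (52.5%). The range of series means of Camk4 was small, with 97.1% of probes wider, and that of Camk2b likewise (91.4%). Apart from Nrgn, the other members lay between 45.6% (Camk2a) and 67.0% (Camk2d).

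Levels of cell-type markers differed between the same series. In D against B, all 3 inhibitory markers were higher (median 1.41; Gad1 1.41), as were 3 of 4 excitatory (median 0.47) and 3 of 6 neuronal markers (median 0.26; Snap25 0.90). The oligodendrocyte-lineage markers were lower in 6 of 7 cases (median -2.58; Mbp -4.03, Pdgfra -3.80), whereas Mog was higher (0.40, adjusted p = 0.0157 in limma). All 3 measured markers of dividing cells were lower (median -2.18). The mean level of the oligodendrocyte-lineage list ran from 3.20 to 4.42 in D and had a median of 6.76 in C, and that of the inhibitory list from 2.86 to 3.57 in D and no higher than 2.76 in the other series. Of 6 astrocyte markers 1 was higher in D than in B (Gfap 1.59) and 2 were lower (Aldh1l1 -1.54, Slc1a3 -1.18). Of 6 microglial markers 2 were higher and 3 lower, and of 4 tested endothelial and mural markers 2 were higher and 0 lower. Of all probes 53% passed in this pair, so the neuronal count of 3 of 6 is near that share. The part of these marker differences in the series differences of Nrgn, Camkk1, Camkk2 and Camk2d was not tested.

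**Figure D4:**
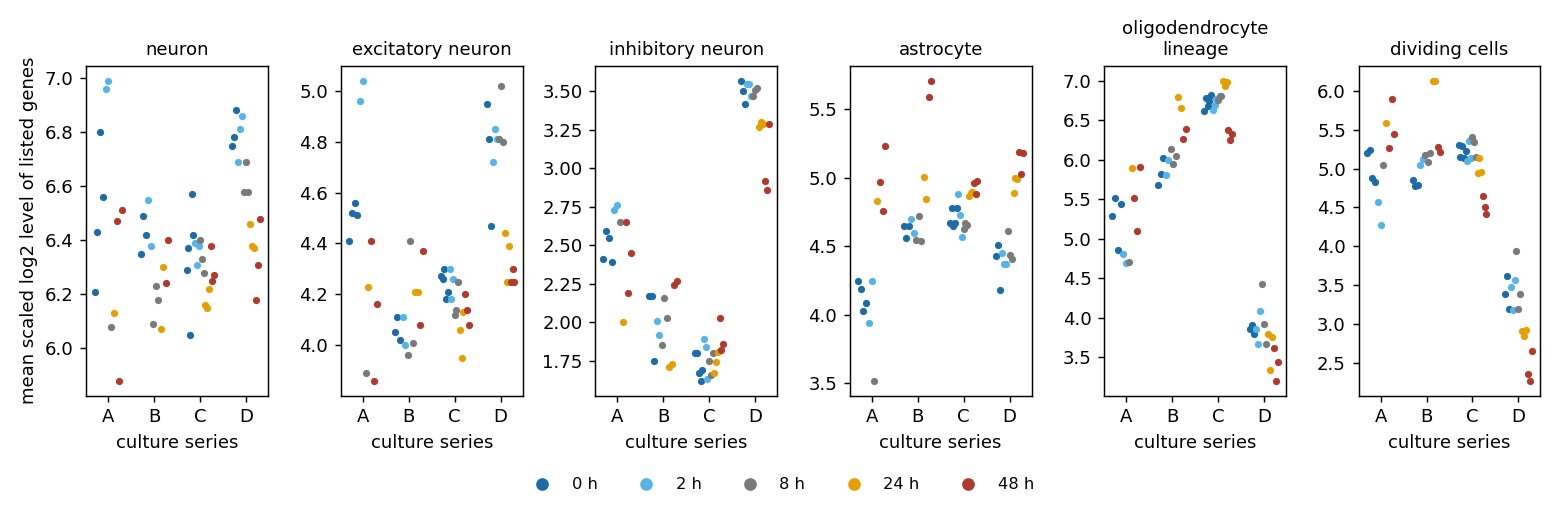
Mean scaled log2 level of each cell-type marker list in culture series A, B, C and D, 1 point per array coloured by time and a scale of its own in each panel. Series D is apart for the oligodendrocyte-lineage list (3.20 to 4.42) and the inhibitory list (2.86 to 3.57).

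The course over time also differed between series. This test was passed by 5 of 8 members (39.4% of probes): Camk2a (adjusted p = 0.000813), Camk2b (0.00181), Camk2d (0.0282), Nrgn (0.0215) and Camkk2 (0.0216). It was not passed by Camk2g (0.0617), Camk4 (0.58) or Camkk1 (0.302). The 5 calls fell to 1 without series B, 2 without C and 3 without D.

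Nrgn gave the widest contrast of that kind. In series B it was at 2.65, 2.38 and 2.07 at 0 h and at 3.38 and 4.73 at 48 h, a difference of 1.70 over the arms present at both times. In D it was at 4.85, 5.25 and 5.65 at 0 h and at 4.78, 5.06 and 4.85 at 48 h, a difference of -0.35. Series B thus ended above where it had started and D did not, while the differences in A and C were -0.15 and 0.12. At 24 h the difference was 1.53 in B, 0.18 in C and -0.21 in D.

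The Camk2a difference at 48 h, over shared arms, was 0.30 in A, -0.29 in B, 0.51 in C and -0.22 in D. Its level in series C at 0 h was 0.45, 0.68 and 0.95 in the 1 Hz, sham and iTBS cultures and 1.47 and 1.39 in the untreated ones. At 48 h the series C levels were 1.16, 1.17 and 1.29, inside the gap between them. The Camk2d difference at 48 h was -0.93 in A and 0.37 in D.

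**Figure D5:**
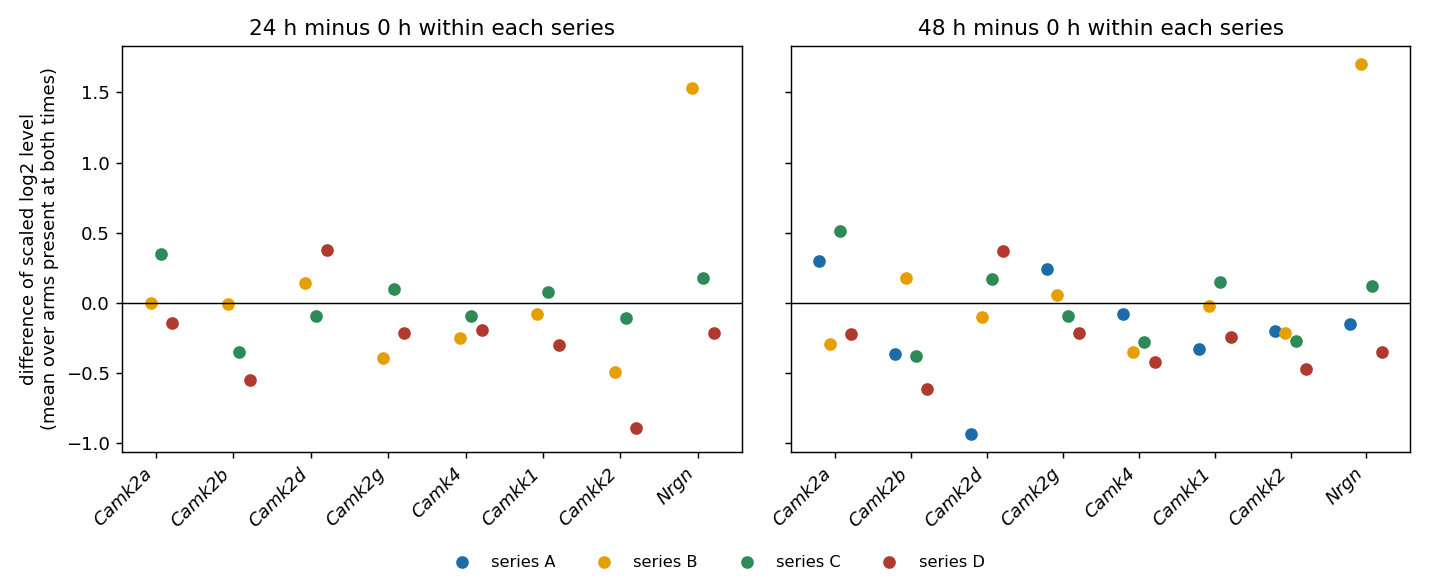
Difference of scaled log2 level from 0 h for each gene within a culture series, at 24 h (left; series B, C and D) and 48 h (right; series A, B, C and D), as the mean over the arms (sham, 1 Hz, iTBS) that the series held at both times. At 48 h the Camk4 points run from -0.42 in D to -0.08 in A, whereas Nrgn is at 1.70 in series B and -0.35 in series D.

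Other probes of 3 members were also above background on 55 of 55 arrays and did not all show the same differences. The Camk2g probes had a correlation of -0.06 over the 55 arrays, and the dimmer one differed by 0.35 between D and B where the brighter differed by -0.16. For Camk2a the correlation was 0.30, and the dimmer probe differed by -0.04 between C and A, against -0.67. The Camk2b probes correlated at 0.57. The dimmer Camk2b probe fell by 0.44 at 24 h (adjusted p = 0.0226 with series as a block) and differed by -0.29 at 48 h (adjusted p = 0.0916), and it was 0.47 higher in D than in B. Another Camk2b probe was above background on 1 array and was not tested. The brightest probes of Camk2b and Nrgn had 10 spots per array and the others 1.

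Over 46 other genes of calcium/calmodulin signalling, all tested, 0 passed for either protocol against sham at any time. At 24 h 1 of 46 passed (3.83% of all probes), Nos1, which makes nitric oxide under calmodulin control (-0.75, SE 0.22, adjusted p = 0.0391). At 48 h 3 of 46 passed (10.8% of all probes): Nos1 (-0.83, adjusted p = 0.0073) and the AMPA receptor subunit Gria1 (-0.49, adjusted p = 0.0395) were lower, and Pnck, a CaMKI-family kinase, was higher (0.73, SE 0.21, adjusted p = 0.019). The list's median change at 48 h was -0.05, against -0.04 over all probes and 0.04 over the brightest probes of all genes with a symbol. Under the series block, 10 of 46 were lower and 2 higher at 48 h, where 27% of all probes passed (13.4% lower), and 5 were lower and 1 higher at 24 h, where 14% passed (5.39% lower). In either direction together, both counts are near the background. The calmodulin-stimulated adenylyl cyclase Adcy1 (-0.88, adjusted p = 0.0226) and the NMDA receptor subunit Grin2b (-0.56, adjusted p = 0.032) were among those lower at 48 h.

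The same list followed the series strongly, with 41 of 46 genes passing (89.1%, against 75.4% of probes). In D against B, 24 were higher and 5 lower (53% of all probes passed in either direction), with a median of 0.30 against 0.02 over all probes. The largest were the calcineurin regulator Rcan2 (1.63, SE 0.11), Camk1 (1.54, SE 0.11), the scaffold Dlg4 (1.43, SE 0.22) and Pcp4l1 (1.36, SE 0.12), and Nrgn, Camkk1 and Camkk2 were higher in the same pair. The course over time differed between series for 20 of 46 (43.5%), near the 39.4% of all probes.

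Members varied together to different degrees over the 55 arrays, which share series and depth. After group means were taken out, Pearson's r was 0.56 between Camkk1 and Nrgn, 0.51 between Camkk2 and Nrgn, 0.51 between Camk2a and Camkk2, -0.45 between Camk2a and Camk2g and -0.55 between Camk2d and Camk2g. After series means were also taken out, r was 0.62 between Camk2b and Nrgn, 0.54 between Camk2a and Camkk1, and -0.44 between Camk2d and Camk2g. For Camk2a and Camk2g these values hold for the brightest probe, which correlated with the dimmer probe of its gene at 0.30 and -0.06. The level of Camk2d also went with the overall brightness of the array (r = 0.52 with its log2 75th percentile), as did that of Camkk1 (0.37), and those of Camk4 (-0.39) and Camk2b (-0.33) went against it. The part of brightness in the results was not tested.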

How the data were processed

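RNA of 56 cultures was labelled with 1 dye and hybridized to Agilent rat arrays, 1 sample per array. The deposited scanner files give the processed signal of each spot, an intensity that the authors extracted with Agilent Feature Extraction 12.0.3.1 and did not normalize between arrays. The deposited series matrix gives a score per probe, the z-score that the authors computed within each array. Scores recomputed from the intensities differed by at most 0.005.

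Log2 processed signals were averaged over spots of a probe, converted to z-scores within each array and multiplied by the median SD of 4.06, so that differences read as log2 changes. Spots marked as outliers were left out, and 420 probes without a value on an array were dropped. A probe was tested if it was well above background on 3 or more arrays, which 35694 of 45598 probes were. Symbols were found through RefSeq accessions for 17732 of these. The array with a misplaced grid correlated at -0.0102 with the mean of the others and was left out after the files were seen.

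Group means were fitted to 55 arrays with limma 3.58.1 (lmFit and eBayes, R 4.3.3). The residual degrees of freedom were 39 and the prior ones 2.82. Tests were two-sided, with Benjamini-Hochberg adjustment over all probes and a threshold of 0.05. Culture series, read from the sample numbers (A, 1 to 18; B, 22 to 36; C, 37 to 54; D, 1 to 15 with a letter), entered as a block where stated. Deviations from group means correlated at a mean of 0.398 between arrays of the same series and -0.134 between arrays of different series, although 1 pair of the former was as low as -0.0166. Tests of culture series and of series by time added these terms to the group means. How many arrays a group held set the precision of its comparisons.

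The members and lists were chosen with earlier results of these data known. All members are named, and at most 4 genes of the list of 46 per comparison, those passing with the largest changes. Alternatives were other scalings, background corrections, filters, blocks and left-out arrays. The normexp alternative (offset 50) used the median spot signal. The fit was tested on simulated data of 35694 probes with 50 altered probes per size and noise that was independent between arrays. Of those altered by 1, 66% were recovered for 48 h against 0 h, 76% with series as a block and 76% for series D against B.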

Additional observations from a re-analysis of the deposited data

Results flagged for a closer look

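Of 64 groups of members and arrays large enough to be tested (4 arrays), 5 held an array far from the others, where chance gives about 1 in 20. Camk2a in sham at 0 h was 0.68 in replicate 3 (series C), against 1.56 to 1.73 in the other 3 arrays. Camk2b after iTBS at 48 h was 7.07 in replicate 2 (series B), against 6.25 to 6.36. Camk2d after 1 Hz at 48 h was 0.35 in replicate 2 (series B), against 0.87 to 0.89. Camkk1 after iTBS at 2 h was 2.35 in replicate 1 (series B), against 2.99 to 3.08. Camkk2 after 1 Hz at 48 h was 0.13 in replicate 4 (series D), against -0.78 to -0.70. All are scaled log2 levels, and 3 of the 5 arrays were of series B.

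The course over time differed between culture series, by limma's F test of the interaction with Benjamini-Hochberg adjustment, for Camk2a (adjusted p = 0.000813), Camk2b (0.00181), Nrgn (0.0215), Camkk2 (0.0216) and Camk2d (0.0282).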

How the results depend on the processing

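With all 56 arrays, 6 tests of 1 Hz against sham and 5 of iTBS against 1 Hz passed, and the counts fell to 0 for later times, 0 for the pathway list, 2 for culture series, 21 for the pathway list by series and 0 for series by time. That fit also turned 1 Hz against sham at 2 h to -3.33 for Camk2g, 0.69 for Camk4 and 3.40 for Camkk1, the construction of the fit being the array with the misplaced grid. The title number as a replicate block turned Camk2b in series D against A to -0.46. The count of members passing at later times, 1 of 32, became 2 with 75th percentile scaling, 3 with quantile normalization, 2 with normexp, 2 with the deposited z-scores, 5 with series as a replicate block, 5 with series as a random block, 2 with the title number as a replicate block and 0 with the slide as a block. It was 0 without series C or D, and 1 to 2 over single left-out arrays, with 2 without the 1 Hz or iTBS array of series B at 48 h. In each of the scalings, under the title number and without either of those arrays the added call was Camk2b at 48 h, joined under quantile normalization by Camkk2 at 24 h. The pathway list, 4 calls at later times, gave 18 with series as a replicate block, 17 as a random block, 9 with the title number, 1 with the slide, 2 without series A, 1 without B, 1 without C and 2 without D. Over single left-out arrays it gave 1 (without 1 Hz at 0 h replicate 1) to 7 (without 1 Hz at 48 h replicate 4). Series by time gave 1 without series B, 2 without C and 3 without D, and 4 to 6 over left-out arrays. Where no cause is named, it was not tested. Leaving out series was chosen after seeing the data.

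Over the 55 left-out arrays the Camk4 change at 48 h ran from -0.38 to -0.27 (highest adjusted p 0.0481). Nrgn in D against B ran from 2.01 to 2.26 there and from 1.28 to 2.23 over the other alternatives (highest adjusted p 0.00954). Culture series gave 6 to 7 members and the pathway list by series 41 to 42 over left-out arrays. The title number did not pair the arrays (mean r 0.160 within a number, 57.6% of pairs over 0.1). Every array correlated best with its own series (100%). Comparisons with 0 h could not be fitted with series within time as a block, and tests of culture series were not refitted with series as a block. Depth is limited by signal over background: the Camkk2 and dimmer Camk2a probes had median signals of 85.8 and 77.6.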

Other observations

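For each member the 3 genes whose levels deviated most alike are given, from 10521 genes well above background on all 55 arrays. The measure was Pearson's r of the residuals after group and series means, and r of the levels is given beside it. The 55 arrays share culture series, so these are descriptions without a test. Nrgn was closest to Arsg (0.92, levels 0.92), Kctd13 (0.92, levels 0.81) and the sodium pump regulator Fxyd7 (0.91, levels 0.56). Camk2b was closest to neuronal cytoskeleton and growth genes, Tubb3 (0.89, levels 0.79), Evl (0.88, levels 0.79) and Gap43 (0.85, levels 0.81). Camk2g was closest to Dctn5 (0.82, levels 0.86), Satb1 (0.78, levels 0.85) and Ndufb4 (0.76, levels 0.73).

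Camk2d was closest to Bms1 (0.83, levels 0.74), Vav3 (0.80, levels 0.79) and Slc16a11 (0.80, levels 0.52). Camk2a was closest to Atosb (0.78, levels 0.57), Kalrn (0.75, levels 0.80), an exchange factor of dendritic spines, and Klf13 (0.72, levels 0.64). Camk4 was closest to the neuronal repressor Zbtb18 (0.77, levels 0.58), Psd (0.73, levels 0.63) and Mapk10 (0.73, levels 0.48). Camkk1 was closest to Bdh1 (0.73, levels 0.57), Luzp1 (0.72, levels 0.39) and Zfp213 (0.68, levels 0.70). Camkk2 had no close match, with Gmeb1 (0.58, levels -0.11), Tulp4 (0.57, levels 0.76) and the scaffold Dlg4 (0.55, levels 0.58).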
